A study of Mus musculus with 8 samples.

Results

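Dbp, Tef, Hlf and Nfil3 were followed in livers of mice with a mutated Per2 gene and of wild-type mice. They were chosen by symbol, as the probes that the platform annotation assigns to one of these 4 genes alone, and comprised 8 of 41174 probes and 4 of 19532 named genes. Dbp had 1 probe, Tef 4, Hlf 1 and Nfil3 2. Total liver RNA had been labelled with Cyanine 3 and measured on 1-colour Agilent arrays, 1 array per mouse. The mutants were 4 mice carrying the mper2brdm1 allele, known as a deletion within the part of Per2 that encodes its PAS protein-interaction domain, and the controls were 4 WT mice. The mutation is constitutive, so it affects every cell type and not hepatocytes alone. All 8 animals belonged to one cohort on a mixed background (129sv and C57Bl/6) and had been starved for 8 h when they were killed. Age, sex and the hour of killing were not given in the sources used here, and the daily phase of the livers is therefore unknown.

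The D-box is a short DNA element through which the circadian clock drives many liver genes. Dbp, Tef and Hlf are the PAR bZIP activators, named for a proline and acidic amino acid-rich domain next to their basic leucine zipper, and Nfil3, also called E4BP4, is a bZIP repressor that binds the same element. Dbp is a direct target of the Clock and Arntl activator at E-boxes and is among the liver transcripts with the strongest daily rhythm, whereas Nfil3 is driven through ROR elements, where the REV-ERB receptors Nr1d1 and Nr1d2 repress. In liver the PAR bZIP factors are known for control of drug and bile acid metabolism.

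All values are log2-scale differences: the authors had subtracted from each probe its median across arrays, so no expression levels remain and levels of different genes cannot be compared. Neither log base nor sign convention was given, and base 2 with brighter signal upward was assumed. Differences are mutant minus wild type ± the standard error of a limma fit over all 28042 genes and unnamed probes, with Benjamini-Hochberg adjusted p-values over all of them, and a gene passed at an adjusted p under 0.05. By that rule 15.5% of all rows passed, 6.52% as higher and 8.93% as lower in the mutants (1828 and 2505 rows). Left as deposited, the split was 2449 higher and 1537 lower. Among named genes alone 7.13% passed as higher and 10.5% as lower. The groups did not overlap in 24.6% of all rows. The median difference of all rows was 0.08, and 0.20 when the values were left as deposited, so the differences of single genes move by that much with the scaling. In a liver sample, fewer cells of a type and less RNA per cell cannot be told apart.

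The promoters are shown because short windows at the starts of the 3 activators and the repressor differ in the exact matches they hold. RefSeq promoter windows (GRCm38.p6, from 250 bases before to 50 bases after a start, positions counted from the start) were found for all 4 genes, with 2 starts for Tef. Stretches of 100 bases are given 5′ to 3′ on the gene's strand, and capitals mark an E-box (CACGTG) in Tef and Ciart, a cAMP response element (TGACGTCA) in Hlf, the core of a ROR element (AGGTCA, here on the opposite strand) in Nfil3, and D-boxes (TTATGTAA on either strand) in Per3 and Alb. Ciart, Per3 and Alb are shown beside the 4 genes because they hold several copies of one of these elements.
Tef, first start (chr15:81802496-81802595, plus strand): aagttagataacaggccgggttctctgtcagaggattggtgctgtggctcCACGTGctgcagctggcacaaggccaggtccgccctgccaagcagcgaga
Tef, second start (chr15:81811226-81811325, plus strand): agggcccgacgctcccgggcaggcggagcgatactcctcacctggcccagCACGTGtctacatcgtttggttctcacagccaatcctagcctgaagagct
Hlf (chr11:90390918-90391017, minus strand): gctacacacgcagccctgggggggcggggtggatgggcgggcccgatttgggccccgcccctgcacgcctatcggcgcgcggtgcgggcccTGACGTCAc
Nfil3 (chr13:52981040-52981139, minus strand): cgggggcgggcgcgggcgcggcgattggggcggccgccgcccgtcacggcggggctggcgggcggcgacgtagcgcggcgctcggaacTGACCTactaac
Dbp, with no searched motif in its window (chr7:45705147-45705246, plus strand): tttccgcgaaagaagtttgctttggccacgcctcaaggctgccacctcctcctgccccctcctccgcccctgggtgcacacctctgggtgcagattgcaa
Ciart (chr3:95882259-95882358, minus strand): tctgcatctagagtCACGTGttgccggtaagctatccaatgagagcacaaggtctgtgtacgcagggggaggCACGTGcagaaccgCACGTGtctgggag
Per3 (chr4:151044796-151044895, minus strand): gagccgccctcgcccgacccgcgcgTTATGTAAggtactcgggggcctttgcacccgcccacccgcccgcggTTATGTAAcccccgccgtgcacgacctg
Alb (chr5:90460620-90460719, plus strand): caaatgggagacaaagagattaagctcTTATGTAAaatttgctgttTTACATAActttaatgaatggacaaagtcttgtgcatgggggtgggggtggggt

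In the same RefSeq annotation Dbp spans chr7:45705100-45710203, Tef chr15:81802673-81826863, Hlf chr11:90336535-90390917 and Nfil3 chr13:52967209-52982878, and the windows shown for Dbp and Nfil3 belong to starts inside those spans. Both Tef windows hold an E-box, at positions -127 to -122 before the first start and -138 to -133 before the second. The cAMP response element of Hlf lies at -9 to -2, and the ROR core of Nfil3 at -12 to -7. These letters were searched on both strands, and none of the strings contains another. Sequence outside the windows was not searched, so Dbp may hold E-boxes elsewhere. An E-box stood in 7.15% of all 32851 windows, a ROR core in 16.3%, a cAMP response element in 1.79%, TTATGTAA in 0.938% and the other D-box spelling, TTACGTAA, in 0.119%. A match is a stretch of letters and no measured binding. No D-box stood in the windows of the 4 genes themselves.

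Dbp showed the largest difference of the 4 genes. Mutants 1 to 4 read -1.68, -2.17, -1.95 and -0.71, and wild types 1 to 4 read 0.72, 0.71, 0.94 and 0.92. All mutants lay below all wild types, with the lowest wild type 1.41 above the highest mutant. Dbp fell by 2.45 ± 0.30 (5.46-fold, limma adjusted p = 0.00233), from a mean of 0.82 ± 0.13 (SD, n = 4) in wild type to -1.63 ± 0.65 (SD, n = 4) in the mutants. It had the 132nd lowest difference among the 19532 named genes. The wild types spanned 0.24 and the mutants 1.47, since mutant replicate 4 lay well above the other mutants. Without that mouse the difference was -2.75 ± 0.15.

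Tef, the second activator, also fell. Averaged over its 4 probes, it read -0.78, -0.54, -0.59 and -0.46 in mutants 1 to 4, while wild types 1 to 4 read 1.51, 0.53, 0.57 and 0.45. The groups did not overlap, and wild type replicate 1 stood apart from the other 3 wild types. The difference was -1.36 ± 0.24 (2.56-fold, limma adjusted p = 0.00930). The high value of that mouse came from a single probe, A_52_P658073, designed to the cDNA AK045575, which read 4.41 there against 0.70, 0.98 and 0.97 in the other wild types and -1.18 to -0.70 in the mutants. The other 3 probes, all designed to NM_153484, differed by -0.77 ± 0.16, -0.92 ± 0.16 and -1.02 ± 0.11 and each passed on its own (limma adjusted p over all probes = 0.0153, 0.00768 and 0.00147). Over all probes 16.3% passed, 6.36% as higher and 9.92% as lower. A_52_P658073 differed by -2.73 ± 0.79 and did not pass (limma adjusted p = 0.0540), and without wild type replicate 1 it differed by -1.85 and passed (adjusted p = 0.00203).

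Averaged over the 3 concordant probes, an average chosen after its values were seen, Tef was at -0.67, -0.33, -0.50 and -0.38 in the mutants and at 0.54, 0.48, 0.43 and 0.28 in wild type. The difference was then -0.90 ± 0.12 (1.87-fold, limma adjusted p = 0.00284). The size of the Tef difference therefore rested in part on 1 probe in 1 mouse, and its direction was the same in all 4 probes. Wild type replicate 1 held 583 probes that lay at least 3 above the next highest array, against 30 to 71 on each other array.

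Hlf, the third activator, showed a small difference. Mutants 1 to 4 gave -0.22, -0.34, -0.24 and -0.09, against 0.18, 0.25, 0.07 and 0.31 in the wild types. The groups did not overlap, but the gap between the highest mutant and the lowest wild type was 0.16. Hlf fell by 0.42 ± 0.10 (1.34-fold, limma adjusted p = 0.0313), and 48.0% of all rows had a larger absolute difference. The call of Hlf depended on the scaling and on single mice. With the values as deposited the difference was -0.30 (adjusted p = 0.106). Leaving out any one of mutant replicates 1 to 3 or of wild type replicates 1, 2 and 4 gave adjusted p = 0.0582 to 0.0841. Relative to the median of all rows Hlf differed by -0.50, both as scaled and as deposited. These values are equal by construction, because the scaling shifts all rows of an array by the same amount. After quantile normalisation Hlf differed by -0.55, and by -0.60 relative to the median of all rows.

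Nfil3, the repressor, moved the opposite way. It read 0.40, 0.74, 0.45 and 0.36 in mutants 1 to 4, against -0.32, -0.58, -0.71 and -0.70 in the wild types. Every mutant lay above every wild type, with a gap of 0.68. Nfil3 rose by 1.07 ± 0.14 (2.09-fold, limma adjusted p = 0.00273). Its 2 probes, both designed to NM_017373, gave 1.03 ± 0.15 and 1.10 ± 0.13 and each passed (limma adjusted p over all probes = 0.00435 and 0.00196). An exact permutation test (two-sided) returned p = 0.0286 for each of the 4 genes and 8 probes, which is the lowest that 4 against 4 mice can reach. Every row whose groups do not overlap reaches that p, and 24.6% of all genes and unnamed rows did so. The share over single probes was not counted.

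**Figure D1:**
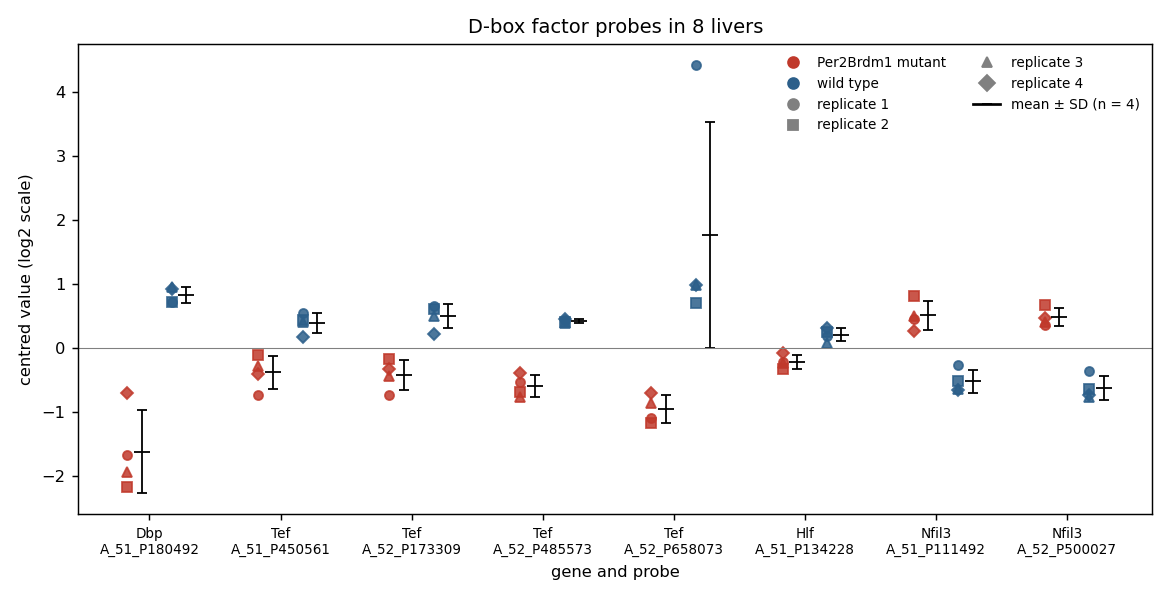
Centred values (vertical axis, log2 scale) of the 8 probes of Dbp, Tef, Hlf and Nfil3 (horizontal axis) in each of 4 mutant (red) and 4 wild-type (blue) livers, with replicate shown by marker and group mean ± SD in black. For every probe the red and blue points do not overlap, and the Tef probe A_52_P658073 has a single wild-type value of 4.41. Over all genes and unnamed rows the groups did not overlap in 24.6%.

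Set side by side within each mouse, activator and repressor separated most widely for Dbp. The Dbp value minus the Nfil3 value was -2.08, -2.91, -2.40 and -1.07 in mutants 1 to 4, against 1.04, 1.29, 1.65 and 1.62 in the wild types, a shift of -3.51 between the group means. The corresponding shift was -2.42 for Tef minus Nfil3 and -1.49 for Hlf minus Nfil3, and in neither did the groups overlap. Among the activators, Dbp minus Hlf lay between -1.83 and -0.62 in mutant mice, and wild types lay between 0.46 and 0.87. Dbp minus Tef overlapped between the groups, because wild type replicate 1 was at -0.79. With the 3 concordant Tef probes it ran from -1.84 to -0.33 in the mutants and from 0.18 to 0.64 in wild type. These contrasts between members are descriptions and were not tested.

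With all probes of a gene averaged, mutant replicate 4 lay nearest to the wild-type mean for all 4 genes. Without A_52_P658073, mutant replicate 2 lay nearest for Tef (-0.33, against -0.38 for replicate 4). For the Nfil3 probe A_52_P500027 it was mutant replicate 1 (0.36, against 0.46 for replicate 4). Mutant replicate 4 was the nearest in 10 of the 17 listed clock, target and relative genes that passed (Per2 left out). It was the nearest in 28.4% of all rows that passed. Arntl, for example, was at 1.98, 2.40, 2.18 and 0.95 in mutant replicates 1 to 4, and Ciart at -1.60, -1.48, -1.95 and -0.75. For the targets Cyp2a4 and Cyp2a5 it was mutant replicate 1 that lay nearest.

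Of 14 measured clock genes that act on the D-box factors, 4 passed as higher and 4 as lower, with a median difference of -0.21 against 0.08 over all rows. One of those higher is the average of 2 opposed Per2 probes, described further on. The count of 8 (57.1%, against 15.5% of all rows) was 6 without mutant replicate 4 and 7 without wild type replicate 1. It was 3 without mutant replicate 2 or wild type replicate 3, 4 without wild type replicate 2 or 4, and 5 without mutant replicate 1 or 3. Arntl, the activator's partner of Clock, rose by 3.10 ± 0.31 (limma adjusted p = 0.00117), with wild types from -1.49 to -0.96. Ciart, a repressor of that activator, fell by 2.22 ± 0.24 (limma adjusted p = 0.00145), with wild types from 0.73 to 0.87. Clock itself rose by 1.12 ± 0.27 (adjusted p = 0.0285) and the repressor gene Cry1 by 1.09 ± 0.26 (adjusted p = 0.0267). Only 2 of the 4 Clock probes and 1 of the 2 Cry1 probes passed alone. Clock passed in 10 of 18 other fits and lost its call without mutant replicate 2 or wild type replicate 2, 3 or 4 (adjusted p = 0.0560 to 0.0776). Cry1 passed in 12 of 18 and lost its call without mutant replicate 2 or 3 or wild type replicate 3 (adjusted p = 0.0625 to 0.0660). Cry2, the other cryptochrome, fell by 0.82 ± 0.20 (adjusted p = 0.0288), and the E-box repressor gene Bhlhe40 fell by 0.63 ± 0.11 (adjusted p = 0.0102). Cry2 kept its call in 6 of 18 other fits. Its probe A_52_P248378 passed alone, with a smaller difference of -0.44 ± 0.11 (limma adjusted p over all probes = 0.0326). Its probe A_51_P135542 differed by -1.21 ± 0.40 and did not pass (adjusted p = 0.0840).

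The receptor genes that repress Nfil3 were unlike in how clearly they were measured. Nr1d2, measured by 1 probe, fell by 0.51 ± 0.12 (limma adjusted p = 0.0227), with -0.38, -0.25, -0.48 and -0.10 in the mutants and 0.09, 0.24, 0.26 and 0.24 in wild type. It passed in 9 of the 18 other fits. Nr1d1, averaged over 3 probes, differed by 0.12 ± 0.18 (adjusted p = 0.659). Its probes disagreed: A_51_P223776 fell by 1.17 ± 0.19 (limma adjusted p over all probes = 0.00693), while the other 2 differed by 0.52 ± 0.17 and 1.01 ± 0.31 and did not pass (adjusted p = 0.0861 and 0.0688). The Nr1d1 average thus stands for none of its probes. Rora, an activator at ROR elements, differed by -0.22 ± 0.16 (adjusted p = 0.327).

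Per2, the mutated gene, has 2 probes that moved in opposite directions. A_51_P282760 was at -0.79, -0.84, -0.74 and -0.77 in the mutants and between 0.70 and 1.13 in wild type. A_52_P536869 was at 1.52, 1.15, 1.09 and 1.33 in the mutants and at -1.10, -1.32, -1.27 and -1.37 in wild type. The places of both probes in the transcript were not given, so neither checks the deletion, and the average of both (0.42) has no reading of its own although it passed. Per1 differed by -0.38 ± 0.15 (adjusted p = 0.126), Per3 by 0.25 ± 0.27 (0.521), Npas2 by -0.21 ± 1.17 (0.910) and Bhlhe41 by -0.80 ± 0.41 (0.203), and none of these passed. The Bhlhe41 average stands for neither of its probes. A_51_P451176 differed by -2.09 ± 0.67 and A_52_P618912 by 0.48 ± 0.22 (limma adjusted p over all probes = 0.0733 and 0.179).

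**Figure D2:**
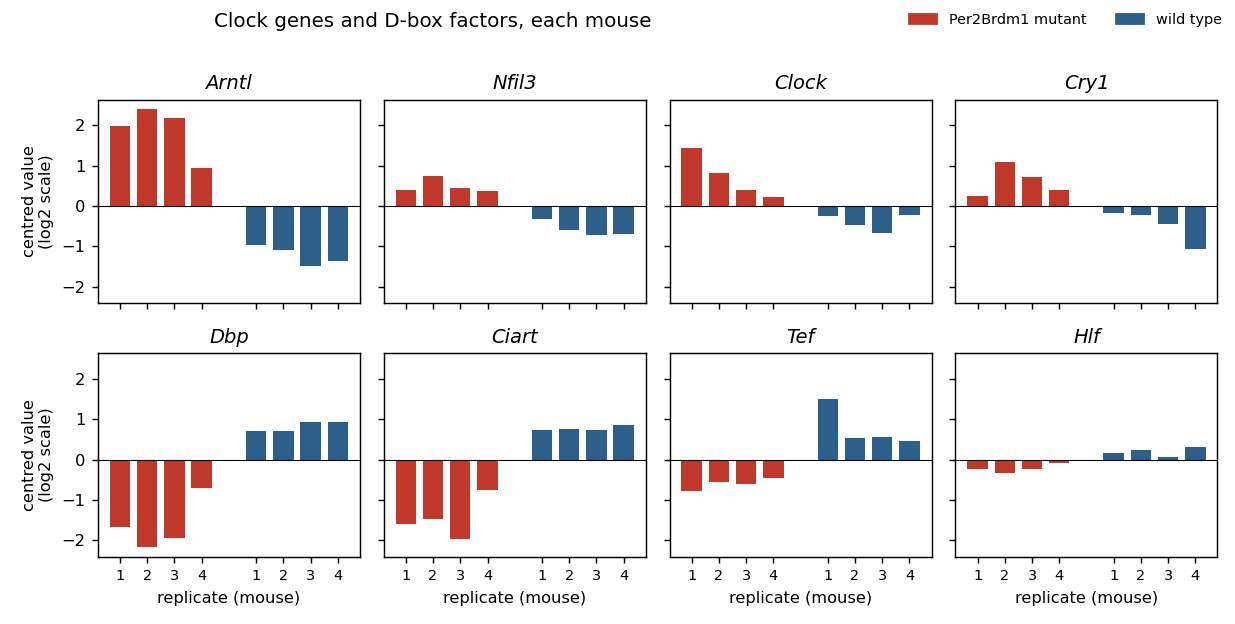
Centred values (vertical axis, log2 scale) of 4 genes that passed as higher (top) and 4 that passed as lower (bottom) in each mutant (red) and wild-type (blue) mouse, with replicate number on the horizontal axis. Mutant replicate 4 has the smallest departure for Dbp (-0.71), Ciart (-0.75) and Arntl (0.95), and Hlf has the smallest bars of the 8 genes.

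Of 6 measured clock output genes with E-boxes, 4 (66.7%) passed as lower, against 8.93% of all rows, and 0 as higher, with a median of -0.84. Besides Ciart and Bhlhe40, which also stand among the regulators above, these were Wee1, a mitotic kinase gene, with -1.54 ± 0.23, and Usp2, a deubiquitinase gene, with -0.87 ± 0.14 (limma adjusted p = 0.00486 and 0.00638). Nampt, of NAD synthesis, differed by 0.33 ± 0.20 (adjusted p = 0.261). Without wild type replicates 2 and 3, whose control features were lower than on the other arrays, 1 of the 6 passed.

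Of 8 measured clock genes with a reported D-box, Cry1 and the Per2 average passed as higher and Nr1d2 as lower, with a median of 0.18. All of these genes except Rorb also stand among the regulators above, so the calls are the same ones counted again. Per3 has 2 exact D-boxes in its promoter window, at -205 to -198 and -158 to -151. This gene was at -0.48, 0.17, 0.65 and 0.02 in the mutants and 0.09, 0.04, -0.11 and -0.68 in wild type, so the groups overlapped. Rorb, a further ROR gene, differed by 0.43 ± 0.22 and did not pass (limma adjusted p = 0.208). The count of 3 was 37.5% of the list, against 15.5% of all rows. It dropped to 0 without mutant replicate 2, mutant replicate 3 or wild type replicate 3. It dropped to 1 without mutant replicate 1 or wild type replicate 2 or 4.

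Among liver genes reported as targets of the PAR bZIP factors or of Nfil3, 5 of 15 measured passed as lower and 2 as higher. The median of this list was -0.49, and 46.7% of it passed, against 15.5% of all rows. The steroid and coumarin hydroxylase genes Cyp2a4 and Cyp2a5, reported targets of Dbp, fell by 2.88 ± 0.28 (7.34-fold) and 1.80 ± 0.26 (3.48-fold; limma adjusted p = 0.00101 and 0.00425). Cyp2a4 was at -1.15, -1.23, -2.46 and -1.72 in the mutants and between 1.18 and 1.31 in wild type. Cyp2a5 was at -0.57, -0.79, -1.81 and -1.29 in the mutants and between 0.57 and 0.79 in wild type. The order of the 4 mutants was the same for both genes, and their sequences are so alike that the probes may read both transcripts.

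Alas1, the first enzyme of heme synthesis, fell by 1.12 ± 0.20 and Cyp7a1, which sets the rate of bile acid synthesis, by 1.52 ± 0.31 (limma adjusted p = 0.0103 and 0.0166). Both probes of each gene passed alone. Cyp7a1 varied among the mutants, at -1.42, -0.11, -0.59 and -1.37, against 0.39 to 0.96 in wild type. Srebf1, the lipogenic regulator reported to respond to Nfil3, fell by 1.88 ± 0.20 (adjusted p = 0.00146).

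The targets that rose were Acot1, a cytosolic acyl-CoA thioesterase gene, with 1.41 ± 0.19 (limma adjusted p = 0.00344), and Fgf21, a fasting hormone gene reported as repressed by Nfil3, with 2.02 ± 0.50 (adjusted p = 0.0320). Fgf21 read 2.13, 2.01, 0.96 and 0.09 in mutants 1 to 4, against -1.49, -0.76, -0.54 and -0.11 in the wild types. The groups were thus nearly in contact, and the call held in 8 of 18 other fits. Acot1 has close relatives in the genome, and Acot2 and Acot4 differed by 0.24 and -0.49 without passing, although the Acot4 probe A_51_P396141 passed alone (-0.61, limma adjusted p over all probes = 0.0362). The Acot3 average of -0.12 stands for neither of its probes: A_51_P420489 fell by 1.29 ± 0.25 (adjusted p = 0.0135) and A_52_P528339 differed by 1.05 ± 0.55 (adjusted p = 0.207). The xenobiotic receptor gene Nr1i3 differed by -0.48 ± 0.17 and its known target Cyp2b10 by 1.14 ± 0.35 (adjusted p = 0.0987 and 0.0685). Lpl differed by -0.92 ± 0.41 and Abcb1a by -0.67 ± 0.24, and neither passed (limma adjusted p = 0.174 and 0.104).

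Alb, the gene whose promoter element gave Dbp its name, overlapped between the groups. It was at 0.11, -0.02, -0.16 and -0.07 in the mutants and -0.17, -0.01, 0.16 and 0.14 in wild type, a difference of -0.06 ± 0.12 (limma adjusted p = 0.726) that was 0.058 as deposited. Its window holds a D-box at -223 to -216 and another at -204 to -197. Over the whole array, 174 measured genes had an exact D-box of either spelling in a window, of which 10 passed as higher (5.75%) and 18 as lower (10.3%). Among all 15594 measured genes with a window the shares were 6.86% and 10.7%. Genes with an E-box numbered 1502, and 94 passed as higher (6.26%) and 191 as lower (12.7%). No test was made of these shares.

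**Figure D3:**
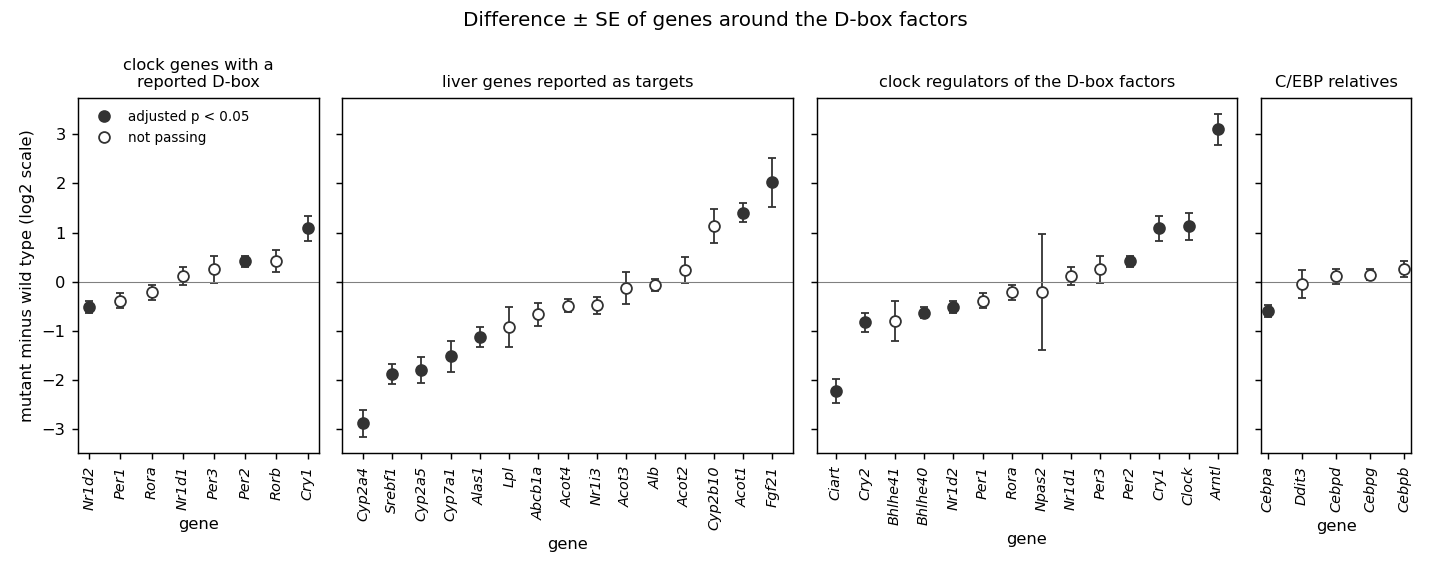
Mutant minus wild type differences ± standard error (vertical axis, log2 scale) of the genes of 4 lists (horizontal axis), filled where the limma adjusted p was under 0.05. Arntl at 3.10 and Cyp2a4 at -2.88 lie at the extremes, and Per3 and Alb, which hold exact D-boxes in their windows, are open points near 0.

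The C/EBP factors, bZIP proteins that bind related elements, included 5 measured genes. Cebpa fell by 0.59 ± 0.13 (limma adjusted p = 0.0186), and both of its probes passed alone. The other 4 measured, Cebpb, Cebpd, Cebpg and Ddit3, differed by -0.05 to 0.25 and did not pass. The count of 1 was 20% of the list, near the 15.5% of all rows, and dropped to 0 without wild type replicate 3 or 4.

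By the root mean square difference over the 8 arrays, each gene centred on its own mean, the pattern nearest to Dbp among 17922 named genes was that of Olfr486 (0.121), an olfactory receptor gene, followed by Hsd17b6 (0.239), a hydroxysteroid dehydrogenase gene, and Ciart (0.251). The median over all genes was 1.33. Nearest to Tef were Cep70, Hemk1 and Pop4 (0.159 to 0.198, median 0.814). Pop4 shared the high wild type replicate 1, at 1.67 against 0.28 to 0.54 in the other wild types. Nearest to Hlf were Rnf135, Ltbr and Cyb561d1 (0.0453 to 0.0536, median 0.395), and nearest to Nfil3 were Plcl1, Chrd and Baalc (0.111 to 0.149, median 0.630). Genes of small difference lie close to each other by this measure.

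Markers of other cells moved with genotype as well. Over all rows 15.5% passed, 6.52% as higher and 8.93% as lower. Of 8 Kupffer cell markers 7 passed as higher, and their mean value ran from 0.47 to 0.83 (mutants) and from -0.85 to -0.33 (wild types). Of 7 squamous epithelium markers 5 passed as lower, with means of -1.80 to -1.41 in mutant mice against 1.18 to 3.77 in wild types. Of 7 hepatocyte markers 1 passed, Ttr, as lower (-0.71), with means of -0.15 to 0.13 and -0.08 to 0.10. In the remaining lists 1 of 6 endothelial, 1 of 4 cholangiocyte and 1 of 4 lymphocyte markers passed as higher, and among 6 stellate markers 3 as higher and 1 as lower. Because the values carry no levels, neither the labelled tissue nor markers at 0 could be checked, and the part of these cells in the results of the D-box factors was not tested.

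Dbp and Nfil3 passed in all 18 other fits, with differences of -2.75 to -2.27 and 0.97 to 1.19. Tef passed in 17 and Hlf in 9. The control features averaged -0.57 and -0.28 in wild type replicates 2 and 3 and -0.01 to 0.21 on the other 6 arrays. Without these 2 mice Dbp differed by -2.45, Tef by -1.57, Hlf by -0.47 and Nfil3 by 0.999, with limma adjusted p = 0.0312, 0.0411, 0.0923 and 0.0330.

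**Figure D4:**
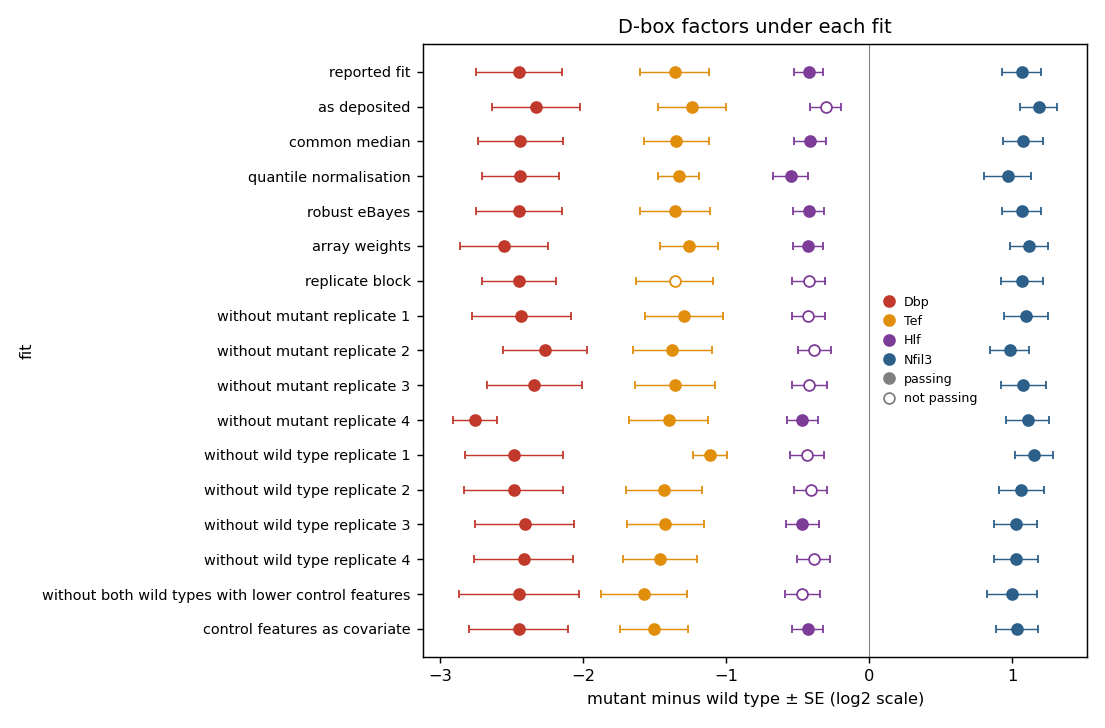
Mutant minus wild type differences ± standard error (horizontal axis, log2 scale) of Dbp, Tef, Hlf and Nfil3 under the reported fit and 16 others (vertical axis), filled where the adjusted p was under 0.05. Dbp, Tef and Hlf lie below 0 and Nfil3 above 0 in each of them, and the open points are those of Hlf and 1 of Tef.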

How the data were processed

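Liver RNA of 4 mutant and 4 wild-type mice was grouped by the labels. The deposited log2 values had been normalised by the authors by a method not given in the sources used here and centred per probe. Base 2 was inferred from their range. Column medians as deposited were 0.10, -0.05, 0.09 and 0.07 in mutants and -0.00025, -0.09, -0.05 and -0.09 in wild type. Of 41252 features 78 controls were set aside, and arrays were shifted (-0.09 to 0.07) to a common 75th percentile. The annotation named 1 gene for 32664 probes, more than 1 for 45 and no gene for 8465. Probes of a gene were averaged. Differences were fitted with limma 3.58.1 (R 4.3.3, two-sided) over 28042 rows. The fit was also run on simulated data whose noise was taken from these arrays, and its outcome is not given here. Figures used matplotlib 3.10.9. No column was unused. Precision is limited by the 8 arrays.

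The members, 5 gene lists (42 genes, 38 measured), 7 marker lists and tests were chosen with earlier results of these data known. Genes named were the members, Per2, the listed genes, and per member the 3 genes nearest in pattern, without predicted or clone names. Genes on the lists with no probe matched, Cyp2c50, Por and Cebpe among them, were not analysed here. Alternatives were other scalings, single probes, robust variance, array weights, a replicate block, left-out mice, control features as covariate and a Student test. The Student test was run with and without Benjamini-Hochberg adjustment, and without it passing meant an unadjusted p under 0.05.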

Additional observations from a re-analysis of the deposited data

Results flagged for a closer look

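In 100 groups of 4 mice, each gene or probe of the D-box factors and of the 5 gene lists giving 1 group per genotype, 11 held a mouse whose gap to the nearest other, as a share of the group's range, exceeded Dixon's critical value. Chance gives about 1 in 20 independent groups. The 100 groups are not independent, because the D-box factors enter both as gene averages and as their own probes. The flags of Tef and of its probe A_52_P658073 rest on the same reading. Of the 11 flags, 6 concerned wild type replicate 1. They were Tef at 1.51, its probe A_52_P658073 at 4.41 and Npas2 at 4.35, each the highest of the group, Acot3 at 0.59 (highest), and Per1 at -0.062 and Nr1d2 at 0.087 (lowest). Npas2 in the other wild types ran from -1.23 to -0.51. Mutant replicate 1 was lowest for Wee1 (-1.23) and Nampt (-0.27). Mutant replicate 4 was highest for Nr1d1 (0.066) and Cebpg (0.20). Wild type replicate 4 was lowest for Wee1 (0.39).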

How the results depend on the processing

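Dbp, Tef and Hlf stayed lower and Nfil3 higher in all 18 alternative fits. Leaving out 1 mouse gave -2.75 to -2.27 for Dbp, -1.46 to -1.11 for Tef, -0.47 to -0.38 for Hlf and 0.98 to 1.15 for Nfil3. Hlf no longer passed as deposited (-0.30, adjusted p = 0.106) or without wild type replicates 2 and 3 (-0.47, adjusted p = 0.0923). Tef did not pass by probe A_52_P658073 alone (-2.73, adjusted p = 0.0540). The cause was not tested.

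Deviations of same-numbered mice from their group means had correlations of -0.10 to 0.10. Of the 4 mutants 2, and of the 4 wild types 2, correlated best with their own number. With 4 mice per group these values cannot decide whether the numbers pair mice. With the replicate block 2030 rows passed. Tef (-1.36, adjusted p = 0.0536) and Hlf (-0.42, adjusted p = 0.0999) did not pass in that fit. In it 0 clock genes with a reported D-box, 2 regulators and 0 C/EBP relatives passed, and the fit has fewer residual degrees of freedom.

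Of all rows 4333 passed, 2884 to 3696 with 1 mouse left out (2884 without wild type replicate 3), 1766 without wild type replicates 2 and 3, 6702 as single probes and 8180 by an unadjusted Student test. Without wild type replicates 2 and 3, 0 clock genes with a D-box, 4 targets, 2 regulators, 1 other output gene and 0 C/EBP relatives passed, and 11 targets passed by the unadjusted Student test. With 1 mouse left out the counts were 0 to 3 clock genes with a D-box, 6 to 10 targets, 3 to 7 regulators, 4 other output genes and 0 to 1 C/EBP relatives.

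Alb, Ddit3, Acot3 and Npas2, which never passed, changed sign in some fits. Alb was 0.058 and Ddit3 0.071 as deposited. Ddit3 was 0.0043 without wild type replicates 2 and 3. Acot3 was 0.055 and Npas2 0.33 with array weights, and Npas2 0.30 after quantile normalisation. With 1 mouse left out Acot3 ran from -0.43 to 0.056, Npas2 from -0.76 to 1.10 and Ddit3 from -0.31 to 0.16. Signal over background could not be given.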
